A study of Mus musculus with 6 samples.

Results

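The genes described here encode the enzymes of glutathione and thioredoxin metabolism and the superoxide dismutases, together with the transcription factor NRF2 and its inhibitor KEAP1. They were chosen by symbol: the cytosolic and mitochondrial glutathione S-transferases (Gst), the microsomal transferases Mgst1 to Mgst3, the glutathione peroxidases Gpx1 to Gpx8, the peroxiredoxins Prdx1 to Prdx6, the thioredoxins, the thioredoxin reductases, Sod1 to Sod3, Gclc, Gclm, Gss, Gsr, Nqo1, Srxn1, Keap1 and Nfe2l2. The arrays carried 72 probes for 54 of these genes, among 55681 probes and 21368 genes that could be named. Of the 54 genes, 52 were bright enough to be tested, among 15302 tested genes in all. The remaining pair, Gpx5 and Gpx6, did not rise well above background on all the arrays of either genotype.

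Inguinal white adipose tissue (iWAT), the subcutaneous fat depot of the groin, was taken from WT and Zip13-KO littermates and measured on 1-colour Agilent arrays, with 3 arrays for each genotype. The comparison asks what the loss of the zinc transporter ZIP13 does to the tissue. Exons 6 to 8 of Zip13 were replaced by a Neo cassette in R1 embryonic stem cells, so the knockout is present in every cell of the body, and the line was backcrossed to C57BL/6J for at least 7 generations. The mice were 10 weeks old, received no labelled treatment, and the labels do not tell whether an array holds 1 animal or a pool. The p values therefore measure the spread between these RNA samples.

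Glutathione is a small thiol made from glutamate, cysteine and glycine. Glutathione peroxidases use it to reduce peroxides, glutathione S-transferases attach it to reactive compounds such as the aldehydes of oxidised lipids, and glutathione reductase regenerates it with NADPH. A parallel system passes electrons from NADPH through thioredoxin reductase and thioredoxin to the peroxiredoxins, and both systems have separate sets of enzymes in the cytosol and in mitochondria, where superoxide dismutase produces hydrogen peroxide from the superoxide leaking from the respiratory chain. In brown and beige fat, mitochondria are abundant and burn fatty acids to make heat.

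All levels below are log2 intensities after quantile normalization, which gives every array the same distribution. A log2 difference is the mean of the Zip13-KO arrays minus the mean of the WT arrays. Values per array are given in the order of replicates 1, 2 and 3. A gene was called when limma gave a Benjamini-Hochberg adjusted p under 0.05 over all tested genes and the change was over 1.5-fold, 0.58 on the log2 scale. Array levels of different genes cannot be set against each other, because probes differ in brightness.

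The targeted gene, Slc39a13 (ZIP13), fell by 4.33 on the log2 scale (SE 0.17, adjusted p = 0.00128 with limma), and its position relative to the deleted exons is not known for this probe. The 6 arrays shared a single slide and scan. Zip13-KO replicate 1 shared a column of the slide with the WT arrays, whereas Zip13-KO replicates 2 and 3 lay in the next column. Between 58.8% and 63.2% of spots were well above background. The cell composition of the tissue moved with genotype by marker genes. All 9 adipocyte markers were measured, 2 of them were called higher and none lower, and their summed intensity was 574261 to 728001 in WT and 819110 to 843329 in Zip13-KO iWAT. All 8 brown or beige adipocyte markers were called higher (summed intensity 36019 to 57996 against 161294 to 250679), and 9 of 10 macrophage markers were called lower (90433 to 147292 against 42792 to 56413). Of 9 stromal markers 2 were called lower, with summed intensities that overlapped (199285 to 423469 against 173140 to 214605). Erythrocyte markers were lower in sum (201478 to 309644 against 132615 to 187196), with Alas2 called lower among 4, and endothelial markers were higher in sum (9624 to 10819 against 11023 to 11763), with Cdh5 called higher among 6. None of the 8 lymph node markers was called by limma, although 6 were lower at an unadjusted p under 0.05 and 2 were called lower by limma with an intensity trend and a robust prior, and their summed intensity was lower on every Zip13-KO array (42202 to 53881 against 30893 to 36697). None of the 8 skeletal muscle markers was called or passed an unadjusted p under 0.05 by limma. All 8 had a positive log2 difference, with a median of 0.69. Their summed intensities overlapped (2034 to 4475 against 2674 to 9299), and Zip13-KO replicate 3 was the highest. Of 7 mammary markers, Krt8, Csn3 and Elf5 did not pass the filter. The 4 that were tested (Krt18, Krt14, Krt5 and Epcam) were not called. Krt5 was higher by 0.89 at an unadjusted p of 0.0458 by limma. The summed mammary intensities overlapped (104 to 363 against 121 to 483). WT replicate 1 had the lowest adipocyte sum of all arrays and the highest macrophage and stromal sums. In bulk tissue, fewer cells of a type and less RNA in each cell cannot be told apart, and the part of cell composition in the results below was not tested.

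In Zip13-KO iWAT, 13 of the 52 tested antioxidant genes (25%) were called higher, where 10.3% of all tested genes were. None was called lower, where 8.38% of all tested genes were. The count of 0 lower was also found by the methods' t-test and by limma with an intensity trend and robust prior. The methods' t-test here is a plain t-test, with unadjusted p unless stated. It leaves out the median-ratio test that the study combined with its t-test. At an unadjusted p of limma under 0.05, 2 genes, Gpx2 and Gstp3, were lower. Without the fold limit, 16 genes were higher (19.3% of all genes were) and 1, Gpx2, was lower (15.2% of all genes were) at an adjusted p under 0.05 by limma. The median log2 difference was 0.21 over the antioxidant genes and -0.00051 over all genes. For 24 genes every Zip13-KO array lay above every WT array, and for 4 every one lay below, against 29.2% and 25.9% of all tested genes. The called genes were Gpx8, Gsto2, Gsta4, Gstt4, Gstt2, Mgst2, Sod2, Prdx3, Txnrd3, Gpx4, Txnrd2, Gstm6 and Gstm5. They came from 6 of the 8 families and from the glutathione S-transferases most often, which are also the family with the most members.

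**Figure D1:**
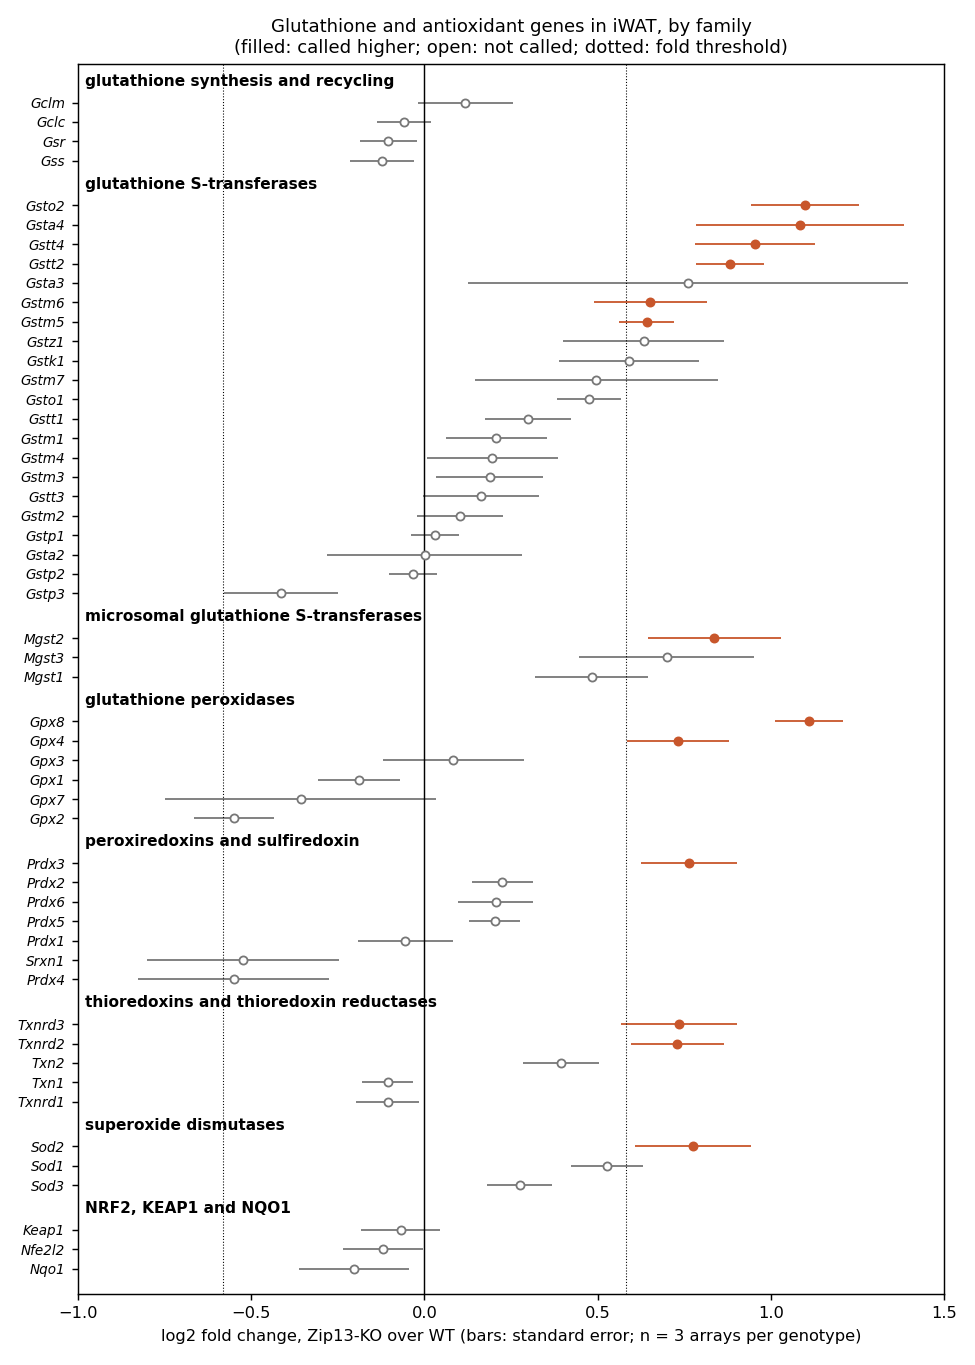
Log2 difference between Zip13-KO and WT iWAT (horizontal axis) for each of the 52 tested antioxidant genes, grouped by family, with bars showing the standard error of the limma fit and filled points the called genes. All 13 called genes lie to the right of 0, between 0.64 and 1.11, while the genes of glutathione synthesis and the NRF2 group stay near 0.

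Zip13-KO replicate 1, which lay in the slide column of the WT arrays, was above all WT arrays in 13 of the 13 called genes, as were the other Zip13-KO replicates. These genes were called on the same arrays, so this order was nearly fixed in advance, and the part of slide column was not tested. Among the WT arrays, replicate 1 was the lowest in 10 of the 13. Leaving out each array in turn, 7 of the 13 genes kept the call every time (Gpx8, Gsto2, Gstt4, Gstt2, Gstm5, Prdx3 and Txnrd2) and 6 lost it at least once, as given for each of them below. Gstt4, among the 7, passed the filter only through the Zip13-KO arrays and lost its call in the authors' normalized table. Without Zip13-KO replicate 1, or without replicate 2, 7 antioxidant genes were called higher, and without WT replicate 2, 18 were. A single gene was called lower without WT replicate 2 or Zip13-KO replicate 1 (Gpx2) and without WT replicate 3 (Srxn1).

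**Figure D2:**
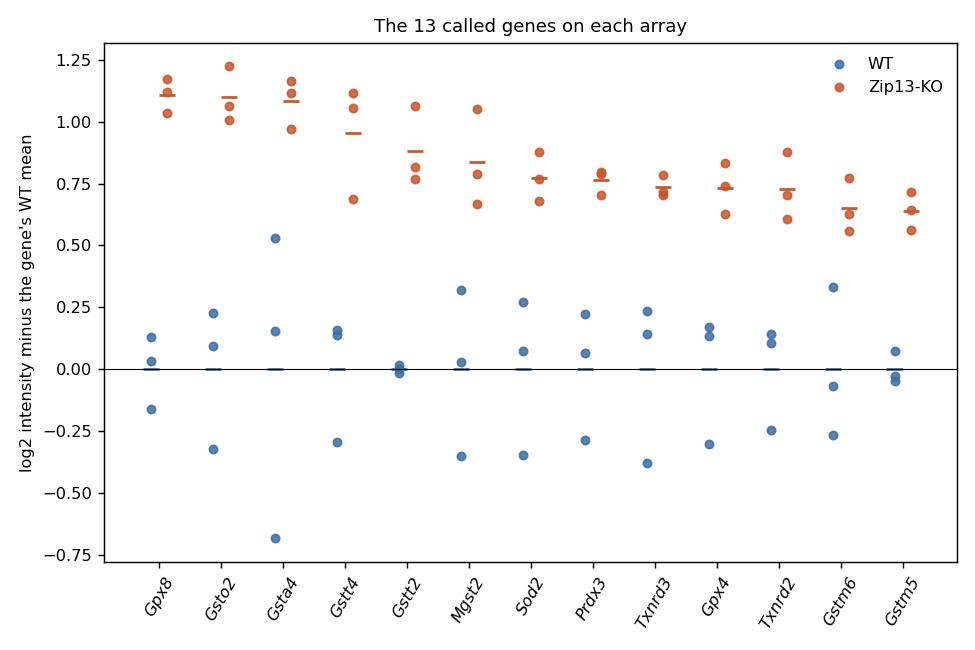
Log2 intensity of each of the 13 called genes on each array, drawn relative to the gene's WT mean, with 1 point per array and a bar at each genotype's mean. In each of the 13 genes the 3 Zip13-KO points lie above the 3 WT points, and the WT points of Gsta4 are the most scattered.

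The 3 superoxide dismutases all had a positive log2 difference, with a median of 0.53. Sod2 (NM_013671), the manganese enzyme of the mitochondrial matrix, had log2 levels of 14.28, 14.90 and 14.71 in WT and 15.40, 15.51 and 15.31 in Zip13-KO iWAT. The genotypes did not overlap and WT replicate 1 was the lowest array. Sod2 rose by 0.77 (1.71-fold, SE 0.17, adjusted p = 0.0181 with limma). Its call was lost without Zip13-KO replicate 1 (log2 difference 0.78, adjusted p = 0.0623) and without Zip13-KO replicate 2 (0.72, adjusted p = 0.0657). Sod1, the copper and zinc enzyme found mainly in the cytosol, had levels of 15.61, 15.93 and 15.89 in WT and 16.34, 16.36 and 16.30 in Zip13-KO iWAT. Its genotypes were also apart, and its log2 difference of 0.53 (adjusted p = 0.0142 with limma) was below the 1.5-fold threshold. It passed that threshold without WT replicate 2 (0.59) and when arrays were scaled to their 75th percentile (0.60). Sod3, the secreted copper and zinc enzyme, had a log2 difference of 0.27 (adjusted p = 0.0649 with limma), with all Zip13-KO arrays above all WT arrays.

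Of the 6 glutathione peroxidases tested, Gpx8 and Gpx4 were called higher, beside 10.3% of all tested genes, and the family median was -0.05. It was 0.05 with 75th percentile scaling, 0.17 without WT replicate 1 and 0.07 without Zip13-KO replicate 2. Gpx8 (NM_027127) encodes a peroxidase of the endoplasmic reticulum membrane that uses cysteine at its active site. Its log2 levels were 13.07, 12.97 and 12.78 in WT and 14.06, 13.97 and 14.11 in Zip13-KO iWAT. The genotypes were widely separated and the arrays of each lay close together. Gpx8 had the largest log2 difference of the antioxidant genes, 1.11 (2.16-fold, SE 0.10, adjusted p = 0.00441 with limma). Gpx4 (NM_001037741), the selenoenzyme that reduces lipid hydroperoxides in membranes, had levels of 14.94, 15.42 and 15.38 in WT and 16.08, 15.98 and 15.87 in Zip13-KO iWAT. WT replicate 1 was the lowest array and the genotypes did not overlap. Gpx4 rose by 0.73 (1.66-fold, SE 0.15, adjusted p = 0.0147 with limma). The call was lost without Zip13-KO replicate 1 (0.68, adjusted p = 0.0583) and without replicate 2 (0.73, adjusted p = 0.0540).

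The other glutathione peroxidases were not called. Gpx1, the abundant cytosolic selenoenzyme, and Gpx3, the plasma form, had log2 differences of -0.19 and 0.08. Gpx2, best known from the intestinal epithelium, had log2 levels of 7.48, 7.40 and 7.61 in WT and 7.09, 6.99 and 6.74 in Zip13-KO iWAT. All Zip13-KO arrays were lower, and the log2 difference was -0.55 (SE 0.12, adjusted p = 0.0169 with limma), just under the fold threshold. Gpx2 passed both thresholds without WT replicate 2 (-0.60) and without Zip13-KO replicate 1 (-0.63). Gpx7, which like Gpx8 acts in the endoplasmic reticulum, had levels of 9.38, 8.14 and 7.83 in WT and 8.17, 7.98 and 8.12 in Zip13-KO iWAT. The genotypes overlapped for Gpx7, and WT replicate 1 alone stood high.

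Among the peroxiredoxins and sulfiredoxin, 1 of 7 genes was called higher (14.3%), near the 10.3% of all tested genes. The median log2 difference was 0.20 (0.10 without WT replicate 1, 0.12 with the mean of each gene's probes and 0.34 with 75th percentile scaling). Prdx3 (NM_007452), the peroxiredoxin of the mitochondrial matrix, had log2 levels of 11.71, 12.22 and 12.06 in WT and 12.70, 12.79 and 12.80 in Zip13-KO iWAT. The 3 Zip13-KO arrays were within 0.1 of each other and above every WT array. Prdx3 rose by 0.76 (1.70-fold, SE 0.14, adjusted p = 0.0120 with limma). Prdx2, Prdx5 and Prdx6, found in the cytosol or in several compartments, had log2 differences of 0.22, 0.20 and 0.21, and none was called. Each had every Zip13-KO array above every WT array, as did 29.2% of all tested genes. The 4 kept probes of Prdx6 ran from 0.04 to 0.21. Prdx1, the main cytosolic peroxiredoxin, had a log2 difference of -0.06 on its brighter probe and 0.30 on its other kept probe, so its direction was not settled by the array.

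The endoplasmic reticulum member, Prdx4, had the lowest value of its family. Its log2 levels were 11.76, 10.75 and 10.77 in WT and 10.57, 10.51 and 10.55 in Zip13-KO iWAT. The genotypes were apart, with WT replicate 1 about 1 unit above the other WT arrays, and the log2 difference of -0.55 did not pass (adjusted p = 0.165 with limma). Without WT replicate 1 it was -0.22. Srxn1, which encodes the sulfiredoxin that repairs overoxidised peroxiredoxins, had levels of 12.01, 12.58 and 11.44 in WT and 11.50, 11.59 and 11.37 in Zip13-KO iWAT. These overlapped, and the log2 difference of -0.52 did not pass (adjusted p = 0.184 with limma). Srxn1 was called lower only when WT replicate 3 was left out (-0.81, adjusted p = 0.0329 with limma).

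Of the 5 thioredoxin and thioredoxin reductase genes, the reductases Txnrd2 and Txnrd3 were called higher, beside 10.3% of all tested genes. Txnrd2 (NM_013711) is the mitochondrial reductase. Its log2 levels were 11.57, 11.93 and 11.96 in WT and 12.53, 12.70 and 12.43 in Zip13-KO iWAT. There was no overlap, and Txnrd2 rose by 0.73 (1.66-fold, SE 0.13, adjusted p = 0.0123 with limma). Txnrd3 (NM_001178058), a reductase with an added glutaredoxin domain that is best known from testis, had levels of 9.30, 9.91 and 9.81 in WT and 10.39, 10.38 and 10.46 in Zip13-KO iWAT. The Zip13-KO arrays were tightly grouped above the WT arrays, of which replicate 1 was low. Txnrd3 rose by 0.74 (SE 0.17, adjusted p = 0.0212 with limma). Its call was lost without WT replicate 1, where the log2 difference of 0.55 was under the fold threshold, and without Zip13-KO replicate 1, 2 or 3, where it was 0.74, 0.75 and 0.71 (adjusted p = 0.0679, 0.0650 and 0.0640). Txn2, the mitochondrial thioredoxin, had a log2 difference of 0.39 (adjusted p = 0.0359 with limma) with the genotypes apart, under the fold threshold. Txn1 and Txnrd1, the cytosolic thioredoxin and its reductase, both had a log2 difference of -0.11 and did not pass.

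Read by compartment, all 6 genes of mitochondrial enzymes (Sod2, Prdx3, Prdx5, Txn2, Txnrd2 and the transferase Gstk1) had every Zip13-KO array above every WT array. Over all tested genes, 29.2% did. Of the 6, 3 were called higher, beside 10.3% of all tested genes. The median log2 difference of the 6 was 0.66, beside 0.21 for all the antioxidant genes. Prdx5 and Gstk1 are also found outside mitochondria, and other genes with several places were not in the list. The counts and the median depend on that choice. Next, 4 pairs of a mitochondrial enzyme and a cytosolic relative were chosen, and other pairs were possible. Prdx2, another cytosolic peroxiredoxin (0.22), was not paired. Nor were Me3 and Me1 (1.54 and 1.33) or Idh2 and Idh1 (0.23 and 0.51), mitochondrial member first, which went opposite ways. In each chosen pair, the log2 level of the mitochondrial gene minus that of the cytosolic gene was compared between genotypes array by array. This difference was larger in Zip13-KO iWAT by 0.25 (SE 0.10) for Sod2 over Sod1, by 0.82 (SE 0.28) for Prdx3 over Prdx1, by 0.50 (SE 0.12) for Txn2 over Txn1 and by 0.84 (SE 0.16) for Txnrd2 over Txnrd1. In each of the 4 pairs all 3 Zip13-KO arrays lay above all 3 WT arrays. The exact permutation test gave a two-sided p of 0.1 for each pair, also after adjustment over the 4 pairs, which is the smallest value that 3 arrays against 3 allow. The pair of Prdx3 and Prdx1 rests on the brighter Prdx1 probe. The brown or beige adipocyte markers, whose summed intensity was higher on every Zip13-KO array, moved with these values, and their part in the result was not tested.

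**Figure D3:**
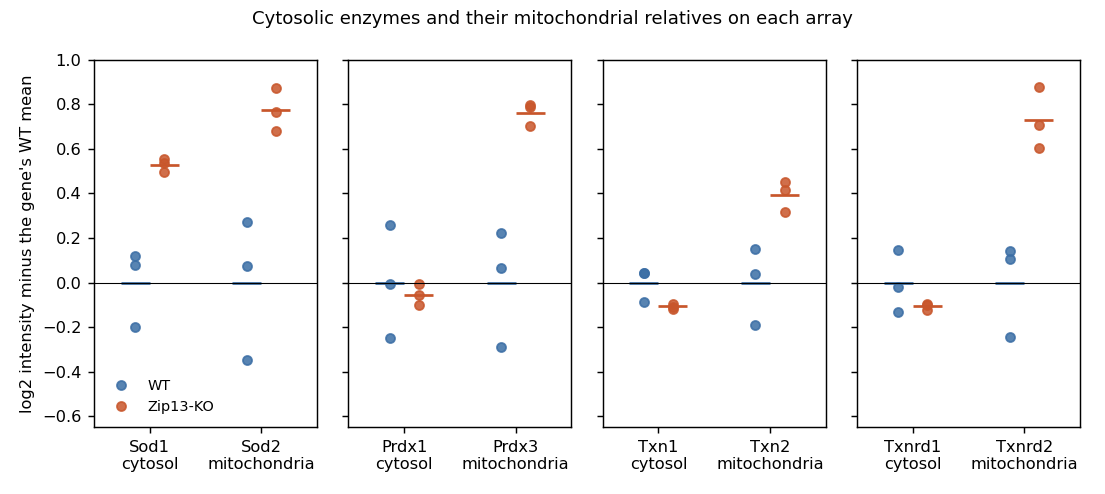
Log2 intensity relative to the gene's WT mean for a cytosolic enzyme (left in each panel) and its mitochondrial counterpart (right), with 1 point per array and a bar at each genotype's mean. The mitochondrial gene is higher on all 3 Zip13-KO arrays in all 4 panels, and among the cytosolic genes only Sod1 shows this.

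The members that contain selenocysteine were divided. Of 7 selenoprotein genes, Gpx4, Txnrd2 and Txnrd3 were called higher, beside 10.3% of all tested genes. Gpx1, Gpx2, Gpx3 and Txnrd1 were not called, and the median log2 difference of the 7 was 0.08. That median had no settled sign: it was 0.24 without WT replicate 1, 0.25 without Zip13-KO replicate 2 and 0.22 with 75th percentile scaling, and -0.016 without WT replicate 2 and -0.05 without Zip13-KO replicate 3. Without Zip13-KO replicate 1 or 2, 1 of the 3 calls was left, that of Txnrd2, and without WT replicate 1, 2 were left. Among 7 genes that handle selenium, 2 were called higher, beside 10.3% of all tested genes. Both encode enzymes of the pathway that builds selenocysteine on its transfer RNA. Sephs2, the synthase of selenophosphate, had log2 levels of 6.91, 7.18 and 7.35 in WT and 8.04, 8.11 and 8.43 in Zip13-KO iWAT, without overlap. It rose by 1.05 (SE 0.15, adjusted p = 0.00765 with limma). Pstk, the kinase that acts on the serine carried by that transfer RNA, rose by 0.69 (adjusted p = 0.00515 with limma). The other 5 were not called, Selenop, the plasma selenium carrier, among them (-0.09).

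None of the 4 genes that make and recycle glutathione was called by limma or by the methods' t-test, and 0 passed an unadjusted p under 0.05. Limma called 10.3% of all tested genes higher and 8.38% lower. Gclc and Gclm, the catalytic and modifier subunits of glutamate-cysteine ligase, which is the rate-limiting enzyme of glutathione synthesis, had log2 differences of -0.06 and 0.12. Gclm had levels of 7.98, 7.84 and 7.49 in WT and 7.91, 7.90 and 7.86 in Zip13-KO iWAT, and its direction turned without WT replicate 3 (-0.024). Gss, glutathione synthetase, was at -0.12, and Gsr, glutathione reductase, was at -0.10. The genotypes overlapped for all 4 genes, and their adjusted p was 0.335 to 0.579 with limma.

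The glutathione S-transferases were the largest family. Of 21 tested genes, 6 were called higher (beside 10.3% of all tested genes) and none lower (beside 8.38%). A positive log2 difference was found for 19, and the median was 0.48. The median was 0.24 without WT replicate 1 and 0.28 with normexp background correction, and the count called higher ran from 4 (without WT replicate 3 or any 1 of the Zip13-KO arrays) to 10 (without WT replicate 2). Many are close copies lying in clusters on a chromosome, so that probes of the alpha, mu and pi classes may bind more than 1 of them, and the values of single genes in these classes are uncertain.

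Gsto2 (NM_026619), an omega-class transferase that reduces dehydroascorbate, had log2 levels of 6.91, 7.46 and 7.33 in WT and 8.24, 8.30 and 8.46 in Zip13-KO iWAT. The genotypes were well apart, and Gsto2 rose by 1.10 (2.14-fold, SE 0.16, adjusted p = 0.00724 with limma). Its paralog Gsto1 had a log2 difference of 0.48 (adjusted p = 0.0139 with limma), with no overlap but under the fold threshold. Gstt2 (NM_010361), of the theta class, had levels of 10.28, 10.30 and 10.27 in WT and 11.10, 11.05 and 11.35 in Zip13-KO iWAT. Its WT arrays were nearly equal, and it rose by 0.88 (1.84-fold, SE 0.10, adjusted p = 0.00515 with limma). Gstt4 (NM_029472) was very dim, with levels of 3.74, 3.29 and 3.72 in WT and 4.64, 4.27 and 4.70 in Zip13-KO iWAT. It was well above background on 2 of the 3 WT arrays and on all 3 Zip13-KO arrays, so it passed the filter only through Zip13-KO. The Gstt4 levels of the genotypes did not overlap. Its log2 difference of 0.95 (adjusted p = 0.0118 with limma) was 0.13 with another background correction (normexp, adjusted p = 0.218) and 0.25 in the authors' normalized table, so its size depended on the treatment of background.

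Gsta4 (NM_010357), the alpha-class transferase that acts on 4-hydroxynonenal, an aldehyde of lipid peroxidation, had log2 levels of 7.87, 9.08 and 8.71 in WT and 9.67, 9.72 and 9.52 in Zip13-KO iWAT. The WT arrays were spread over more than 1 unit and the Zip13-KO arrays lay together above them. Gsta4 rose by 1.08 (2.12-fold, SE 0.30, adjusted p = 0.0365 with limma). This call was lost without WT replicate 3 (1.16, adjusted p = 0.0633) and without Zip13-KO replicate 1, 2 or 3 (1.07, 1.04 and 1.14, adjusted p = 0.104, 0.103 and 0.0793). With the replicate number as a block its adjusted p was 0.0567. Gsta3, of the same class, had levels of 11.54, 14.20 and 12.53 in WT and 13.37, 13.71 and 13.48 in Zip13-KO iWAT. WT replicate 2 was the highest and WT replicate 1 the lowest of the 6 arrays, so that its log2 difference of 0.76 did not pass (adjusted p = 0.380 with limma). Gsta2 was at 0.00.

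All 7 mu-class genes had a positive log2 difference, with a median of 0.21, and Gstm5 and Gstm6 were called. Gstm5 (NM_010360) had log2 levels of 10.92, 10.94 and 11.04 in WT and 11.68, 11.61 and 11.53 in Zip13-KO iWAT. The genotypes were clearly apart, and Gstm5 rose by 0.64 (1.56-fold, SE 0.08, adjusted p = 0.00585 with limma). Gstm6 (NM_008184) had levels of 7.71, 8.31 and 7.91 in WT and 8.60, 8.75 and 8.54 in Zip13-KO iWAT. It rose by 0.65 (SE 0.16, adjusted p = 0.0278 with limma), and its other kept probes ran as low as 0.43. The Gstm6 call was lost in the authors' normalized table (0.49), with normexp background correction (0.44) and with the mean of its probes (0.58), without WT replicate 1 or 3 (0.52 and 0.62) and without Zip13-KO replicate 1, 2 or 3 (0.66, 0.59 and 0.70). Gstm1, the most studied gene of the class, was at 0.21 with overlapping genotypes.

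In the pi class no gene of 3 was called by limma or by the methods' t-test, and 1 (Gstp3) was lower at an unadjusted p under 0.05. Limma called 10.3% of all tested genes higher and 8.38% lower. Gstp1 was at 0.03, and the kept probes of Gstp2 were at -0.03 and 0.02. Gstp3 had the lowest log2 difference of the transferases, with levels of 7.91, 7.69 and 8.25 in WT and 7.35, 7.62 and 7.63 in Zip13-KO iWAT. Its genotypes were apart by a narrow margin, and the log2 difference of -0.41 did not pass (adjusted p = 0.0965 with limma). Gstz1, an enzyme of tyrosine breakdown, and Gstk1, the mitochondrial and peroxisomal kappa-class transferase, had log2 differences of 0.63 and 0.59 with no overlap, and their adjusted p values of 0.0791 and 0.0654 with limma were above the threshold.

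The 3 microsomal transferases, membrane proteins unrelated in sequence to the soluble ones, all had every Zip13-KO array above every WT array. Over all tested genes, 29.2% did. The median log2 difference of the 3 was 0.70 (0.40 without WT replicate 1). Mgst2 (NM_174995), which can also make leukotriene C4, had levels of 11.86, 12.24 and 12.53 in WT and 12.88, 13.26 and 12.997 in Zip13-KO iWAT. It rose by 0.84 (1.79-fold, SE 0.19, adjusted p = 0.0215 with limma). The call was lost without WT replicate 2 (0.85, adjusted p = 0.0513) and without Zip13-KO replicate 1, 2 or 3 (0.92, 0.73 and 0.86, adjusted p = 0.0529, 0.0715 and 0.0570). Mgst3 and Mgst1 had log2 differences of 0.70 and 0.48 and were not called (adjusted p = 0.0757 and 0.0640 with limma), although Mgst1 was called with 75th percentile scaling (0.59) and without WT replicate 2 (0.65). Alox5ap, a member of the same protein superfamily that serves leukotriene synthesis in myeloid cells, fell by 1.70 (adjusted p = 0.00633 with limma). Most macrophage markers fell as well, and their part in that result was not tested.

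NRF2 (Nfe2l2) is the transcription factor that induces many of these enzymes under oxidative or electrophilic stress, and KEAP1 holds it back by marking it for degradation. Control of NRF2 is largely at the protein level, which arrays do not measure. Nfe2l2 had log2 levels of 12.02, 11.84 and 11.84 in WT and 11.98, 11.64 and 11.72 in Zip13-KO iWAT. Keap1 was at 11.56, 11.64 and 11.45 in WT and 11.61, 11.55 and 11.28 in Zip13-KO iWAT. Nqo1, the quinone reductase widely used as a readout of NRF2, was at 6.31, 6.72 and 6.24 in WT and 6.07, 6.18 and 6.40 in Zip13-KO iWAT. The genotypes overlapped for all 3 genes. Their log2 differences were -0.12, -0.07 and -0.20 with adjusted p values of 0.446, 0.663 and 0.350 by limma, and that of Keap1 turned in sign without Zip13-KO replicate 3 (0.032). None of 8 genes for NRF2 partners and competitors and none of 12 other NRF2 target enzymes was called by limma or by the methods' t-test. At an unadjusted p of limma under 0.05, 1 partner was higher and 2 were lower, and 2 target enzymes were higher and 5 were lower. Calls among the target enzymes appeared under other settings. Without WT replicate 3, Cbr3 (-1.03), Ugdh (-0.71) and Akr1b8 (-0.66), enzymes that reduce carbonyls or make glucuronate, were called lower. The medians were -0.06 and -0.11 (0.0055 for the second with 75th percentile scaling). Carbonyl reductase Cbr1 came closest, with a log2 difference of 0.58 (adjusted p = 0.00585 with limma) that lay just under the fold threshold. It was called higher with 75th percentile scaling (0.66), without WT replicate 1 or 2 (0.58 and 0.59) and without Zip13-KO replicate 2 (0.61). The 12 target enzymes do not include the NRF2 targets placed in other lists below, where calls went both ways. Among those, Hmox1 (-2.20) and Slc7a11 (-1.59) were called lower, and Me1 (1.33), Pgd (0.74) and G6pdx (0.60) were called higher. Of these calls, only that of Hmox1 was kept without each array. Slc7a11 passed the filter only through WT, and with normexp background correction it was at -0.43 and not called.

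NRF2 binds the antioxidant response element, whose core is TGACNNNGC, and this core was searched on both strands (on the other strand, GCNNNGTCA) in RefSeq promoter windows of 300 bases, from 250 before to 50 after the start of the gene. It was present in 12.4% of all 32851 windows. Counted by gene, it was present for 14% of all genes with a window and for 16.5% of the 12117 tested genes with one. Of the 46 tested antioxidant genes with a window, 10 held it (21.7%). Of the 11 called genes with a window, 1 held it (Gstm5), and of the 35 genes not called, 9 did. The median log2 difference was 0.30 over the 10 genes with the core and 0.20 over the 36 without it. The sites of all 10 genes are printed below, in order of log2 difference, with the core in capitals and 10 bases on each side, 5′ to 3′ on the strand that reads TGACNNNGC, from assembly GRCm38.p6, to show which bases fill the open positions.
Gsta3, chr1:21240454-21240482, plus strand: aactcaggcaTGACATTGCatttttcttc
Gstm5, chr3:107895802-107895830, plus strand: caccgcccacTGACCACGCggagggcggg
Sod1, chr16:90220696-90220724, minus strand: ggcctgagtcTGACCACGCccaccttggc
Gstm7, chr3:107931725-107931753, minus strand: tctgaagaccTGACAAAGCgaagccaatc
Mgst1, chr6:138140461-138140489, minus strand: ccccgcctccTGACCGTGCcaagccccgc
Gclm, chr3:122245413-122245441, minus strand: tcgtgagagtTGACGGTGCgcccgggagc
Prdx1, chr4:116685456-116685484, minus strand: ctacgggggaTGACTCAGCgctttccctg
Txnrd1, chr10:82859104-82859132, minus strand: cgtgtcagaaTGACAAAGCaaaaatccag
Nfe2l2, chr2:75704885-75704913, minus strand: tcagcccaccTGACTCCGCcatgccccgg
Srxn1, chr2:152105542-152105570, minus strand: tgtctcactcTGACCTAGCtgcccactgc
The core of Srxn1 begins 28 bases after the start of the gene, and those of the other 9 genes begin between 240 and 42 bases before it. The log2 differences of these genes were 0.76 for Gsta3, 0.64 for Gstm5, 0.53 for Sod1, 0.50 for Gstm7, 0.48 for Mgst1, 0.12 for Gclm, -0.06 for Prdx1, -0.11 for Txnrd1, -0.12 for Nfe2l2 and -0.52 for Srxn1. They lie on both sides of 0, and Gstm5 alone was called. A match describes letters in a window and not a bound site. Sequence beyond these 300 bases was not searched, so a gene without the core here may hold it elsewhere. Gclc, Gsr, Gsta4, Gstt2, Prdx6 and Sod3 had no window in the table used.

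Genes that feed these enzymes or share their work were taken as 12 further lists, with 93 tested genes. Of these, 15 were called higher (beside 10.3% of all genes) and 13 lower (beside 8.38%), with a median log2 difference of -0.02. Leaving out each array in turn, 14 of the 28 calls were kept every time and 14 were lost at least once.

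**Figure D4:**
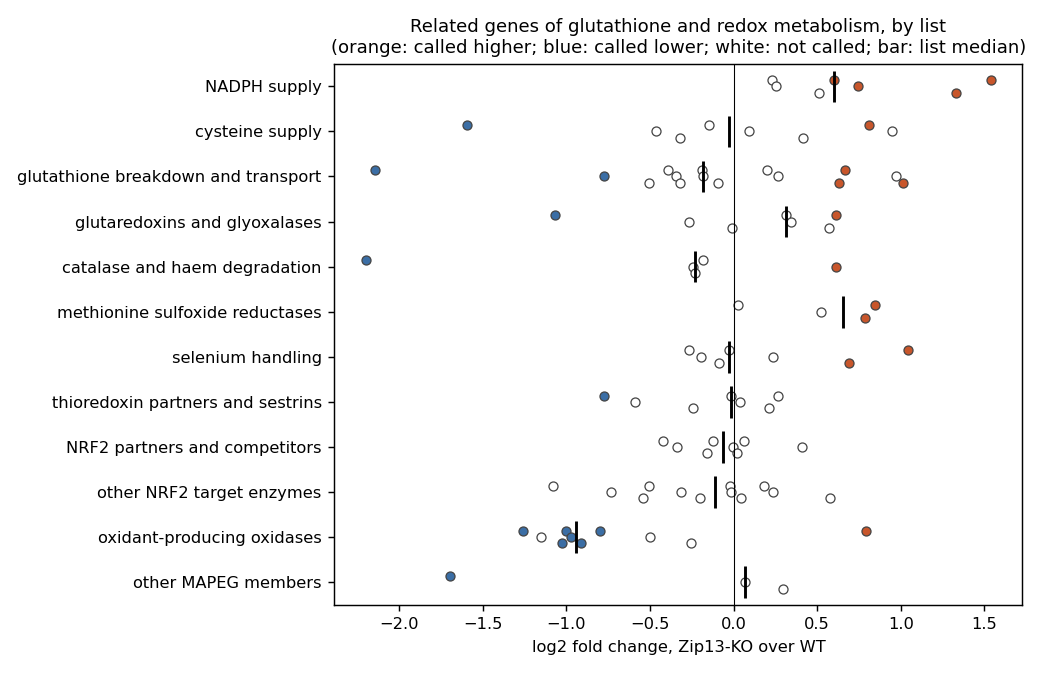
Log2 difference between Zip13-KO and WT iWAT (horizontal axis) for the tested genes of the 12 further lists, with 1 point per gene, orange for called higher, blue for called lower and white for not called, and a bar at the list median. The genes of NADPH supply lie to the right of 0 and most of the oxidant-producing oxidases lie to the left.

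Of 7 tested enzymes that supply NADPH, 4 were called higher, and 1 was without Zip13-KO replicate 1 or 2 and 2 were without WT replicate 1. All 7 had every Zip13-KO array above every WT array, and their median log2 difference was 0.60. Over all tested genes, 10.3% were called higher and 29.2% had every Zip13-KO array above every WT array. Pgls, Idh1 and Idh2 were not called (0.25, 0.51 and 0.23). Me1, the cytosolic malic enzyme, had log2 levels of 14.29, 14.97 and 15.43 in WT and 16.36, 16.42 and 15.91 in Zip13-KO iWAT. Me3, a mitochondrial malic enzyme, had levels of 7.08, 6.66 and 6.64 in WT and 8.23, 8.21 and 8.56 in Zip13-KO iWAT. They rose by 1.33 and 1.54 (adjusted p = 0.0212 and 0.00478 with limma). Pgd and G6pdx, both dehydrogenases of the pentose phosphate pathway, rose by 0.74 and 0.60 (adjusted p = 0.0421 and 0.0186 with limma). The Me3 call was kept without each array. The Me1 call was lost without Zip13-KO replicate 1 or 2 (1.27 and 1.24), the G6pdx call without these or WT replicate 1 (0.47 to 0.59), and the Pgd call without any 1 of the 6 arrays (0.53 to 0.88, adjusted p = 0.0502 to 0.124). Pgd and G6pdx also serve fatty acid synthesis, as Me1 does.

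Cysteine supply was divided. Slc7a11, the cystine transporter, had log2 levels of 5.21, 5.39 and 5.81 in WT and 2.98, 4.44 and 4.22 in Zip13-KO iWAT. It was dim, above background on all 3 WT arrays but on 2 of 3 Zip13-KO arrays, so it passed the filter only through WT. It fell by 1.59 (SE 0.40, adjusted p = 0.0274 with limma). With normexp background correction it was at -0.43 and not called. The Slc7a11 call was also lost without WT replicate 2 or 3 or Zip13-KO replicate 3 (-1.63, -1.43 and -1.76). Slc1a5, a transporter of glutamine and other neutral amino acids, rose by 0.81 (adjusted p = 0.0329 with limma), and this call was lost without any array but WT replicate 2 (0.57 to 0.88).

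Of 15 genes of glutathione breakdown and transport, Oplah, which returns 5-oxoproline to glutamate, rose by 1.01, Slc25a39, the mitochondrial glutathione carrier, by 0.66, and Chac2, which degrades glutathione in the cytosol, by 0.63. Dpep2, a membrane dipeptidase, fell by 2.15 from levels of 9.19, 8.49 and 8.60 in WT to 6.64, 6.56 and 6.64 in Zip13-KO iWAT. Anpep, aminopeptidase N, fell by 0.78. The adjusted p of these 5 genes was 0.00441 to 0.0472 with limma. The calls of Oplah, Slc25a39 and Dpep2 were kept without each array. The Chac2 call was lost without WT replicate 1 or Zip13-KO replicate 1 or 2 (0.49, 0.59 and 0.64), and the Anpep call without any array but WT replicate 3 (-0.84 to -0.53). The Chac2 call was also lost with normexp background correction (0.54) and the Anpep call with 75th percentile scaling (-0.70).

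Catalase and haem oxygenase went in opposite directions. Cat, the peroxisomal enzyme that breaks down hydrogen peroxide, rose by 0.61 (adjusted p = 0.0118 with limma), and fell just under the fold threshold without WT replicate 1 (0.51) or Zip13-KO replicate 3 (0.58). Hmox1, the stress-inducible haem oxygenase that is abundant in macrophages and a target of NRF2, had log2 levels of 14.40, 13.04 and 12.98 in WT and 11.14, 11.25 and 11.43 in Zip13-KO iWAT. WT replicate 1 was the highest and all Zip13-KO arrays were low. Hmox1 fell by 2.20 (4.60-fold, SE 0.39, adjusted p = 0.0110 with limma), and this call was kept without each array. The macrophage markers were lower on the same arrays, and their part in the fall of Hmox1 was not tested.

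Of the 4 enzymes that repair oxidised methionine, 2 were called higher, beside 10.3% of all tested genes. Msrb2, a mitochondrial reductase, rose by 0.85 (adjusted p = 0.00515 with limma) and Msra, found in cytosol and mitochondria, by 0.79 (adjusted p = 0.0163 with limma). The other 2, Msrb1 and Msrb3, had log2 differences of 0.03 and 0.52 and were not called, and the median over the 4 genes was 0.65. The Msra call was lost without Zip13-KO replicate 1 or 2 (0.78 and 0.75), which left 1 call in the list. Of 7 glutaredoxins and glyoxalases, Hagh, which completes the breakdown of methylglyoxal with glutathione, rose by 0.61, and Glrx, the cytosolic glutaredoxin, fell by 1.07. Their adjusted p values were 0.00794 and 0.0177 with limma. The Hagh call was lost without WT replicate 1 or Zip13-KO replicate 3 (0.55 and 0.57) and the Glrx call without Zip13-KO replicate 1 or 3 (-1.07 and -0.98). Nxn, a thioredoxin-like protein, fell by 0.77 (adjusted p = 0.0132 with limma), a call lost without Zip13-KO replicate 1 or 2 (-0.75 and -0.76).

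Oxidases that produce superoxide or hydrogen peroxide were mostly lower. Of 10 tested genes, 6 were called lower (beside 8.38% of all tested genes) and 1 higher (beside 10.3%). The median log2 difference was -0.94. Cybb, the catalytic subunit of the phagocyte NADPH oxidase, had log2 levels of 9.72, 9.24 and 9.04 in WT and 7.91, 8.11 and 8.20 in Zip13-KO iWAT, without overlap. It fell by 1.26, Ncf1, a cytosolic subunit of the same oxidase, by 1.03, and Cyba, its membrane partner, by 1.001 (adjusted p = 0.00774, 0.00710 and 0.00548 with limma). These 3 calls were kept without each array. Nox4, an oxidase of non-phagocytic cells that makes hydrogen peroxide, fell by 0.98 (adjusted p = 0.0326 with limma), a call lost without Zip13-KO replicate 1, 2 or 3 (-0.91, -0.96 and -1.06). Aox1, aldehyde oxidase, rose by 0.79 (adjusted p = 0.0202 with limma), a call also lost without Zip13-KO replicate 1, 2 or 3 (0.80, 0.80 and 0.78). The phagocyte oxidase is a macrophage and neutrophil complex, 9 of 10 macrophage markers were lower in the same arrays, and their part in these values was not tested.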

How the data were processed

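Total RNA of iWAT from WT and Zip13-KO mice was measured on 1-colour Agilent arrays, 3 for each genotype, grouped by the labels. The authors deposited scanner tables made with Feature Extraction 11.5.1.1, which hold spot intensity corrected for background but not normalized between arrays, and a table of log2 values, quantile normalized by the authors. The processed intensity was used as log2, without control spots and outlier spots, averaged per probe and quantile normalized over the 6 arrays. Probes well above background in every array of either genotype stayed (33041 of 55681). Symbols came from RefSeq (GRCm38.p6) through the transcript accession, while the array was annotated on another build. The probe with the highest mean stood for a gene, and 13 antioxidant genes had more than 1 kept probe.

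Genes were compared with limma 3.58.1 (lmFit, eBayes) in R 4.3.3, with Benjamini-Hochberg adjustment over 15302 genes. Steps were tested on simulated data. The antioxidant genes, lists, markers and pairs were chosen with earlier results of these data known. Named genes are every called one, the highest and lowest of each family, the synthesis, dismutase and NRF2 genes, and up to 4 called genes per further list. Others in the text were chosen after their values were seen. Median local background was 31 to 39.5 intensity units, median processed signal was 39.2 to 40.6 in WT and 33.2 to 35.0 in Zip13-KO arrays, with 0 saturated spots. Precision is limited by the number of arrays. The alternatives with normexp (offset 50) and without background correction used the median spot signal, since the files used here hold no mean. Slide and scan were the same for all arrays and need no block. No protein sequences were used here.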

Additional observations from a re-analysis of the deposited data

How the results depend on the processing

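The count of 13 antioxidant genes called higher was 12 with the replicate number as a block, 18 with 75th percentile scaling, 8 with the methods' t-test after adjustment and 4 at an adjusted p under 0.01. Without single arrays it ran from 7 to 18. The count called lower was 0, and was 1 without the fold threshold and 0 to 1 without single arrays. Over all genes, 1576 were called higher and 1282 lower, against 1008 and 721 with the methods' t-test after adjustment, 707 and 505 at an adjusted p under 0.01, and 2952 and 2330 without the fold threshold. Without single arrays these counts ran from 961 to 1674 and from 782 to 1455. With 75th percentile scaling the median log2 difference was 0.34 over the antioxidant genes and 0.026 over all genes. Over the named antioxidant genes, 475 values under an alternative kept direction and side of the threshold, 45 lost the call, 9 gained it and 2 turned in sign. The latter are Gclm without WT replicate 3 and Keap1 without Zip13-KO replicate 3, whose log2 differences ran from -0.024 to 0.23 and from -0.13 to 0.032 without single arrays. Of the 13 calls, 4, for Gpx8, Gsto2, Gstt2 and Gstm5, held under every alternative run. The methods' t-test after adjustment lost those of Gsta4, Gstm6, Mgst2, Txnrd3 and Sod2.

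Same-numbered arrays showed little shared variation: their deviations from the genotype means correlated at -0.02, 0.04 and -0.08. The labels do not tell how replicates were numbered, and these correlations cannot show whether the mice were paired. The block of replicate numbers removed 1 call, that of Gsta4 (adjusted p = 0.0567 with limma), leaving 12. Signal over background limits the dim genes Gstt4, Gsta2 and Slc7a11, and the causes of the other shifts were not tested.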
